A study of Mus musculus with 12 samples.

Results

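The genes described here are the motile cilium and axoneme genes of the mouse: every counted gene whose symbol begins with Cfap, Dnah, Dnai, Dnaaf, Rsph or Tekt followed by a number, and the transcription factors Foxj1, Rfx2 and Rfx3. The rule found 65 of the 38924 counted genes: 30 Cfap genes, 15 Dnah genes, 4 Dnaaf genes, 8 Rsph genes, 5 Tekt genes and the 3 transcription factors, while no symbol began with Dnai. Of these, 64 are protein-coding and 1, Dnah2os, is an antisense transcript. The symbols alone chose the members, but the family was put forward with the differences between sorted types already in view, so the counts and adjusted p-values for those differences describe the genes and support nothing further.

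RNA was sequenced from 4 cell types sorted from E7.25 mouse embryos, with 3 libraries each. All embryos were of the Foxa2Cre:Rosa26-YFP line, in which Cre recombinase made under Foxa2 control switches on a yellow fluorescent protein (YFP) that stays on in the descendants of those cells. The types were YFP+ cardiac mesoderm, called ventricular by the labels, YFP- cardiac mesoderm, called non-ventricular, endoderm sorted as EPCAM+, and hematopoietic mesoderm sorted as KDR+. No untreated or wild-type group stood beside them, and the labels do not say whether the libraries of a type came from separate embryos, so p-values measure the spread between these libraries, which may be technical.

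A motile cilium beats because dynein motors slide the paired microtubules of its core, the axoneme, against each other. Outer and inner dynein arms are built in the cytoplasm by assembly factors, radial spokes and the central apparatus pass signals to the arms, and tektins and other small proteins line the microtubules from within. Foxj1 and the RFX factors switch on these genes in many ciliated tissues, and in the early mouse embryo motile cilia on the node drive the fluid flow that sets left and right. Many axonemal genes are also read in the testis, and a few have known uses outside cilia.

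Gene counts ran from 4472800 to 7888631 per library, so that 3 counts, used as the floor for a gene at 0, were worth 0.380 to 0.671 CPM, and that is also the limit that a count of 0 allows. Levels below are in CPM, the count of a gene in each 1000000 gene counts of its library. Between 18547 and 18618 genes had a count in the endoderm libraries and between 12484 and 16078 in the other 9, so endoderm also showed more genes overall. The labels were checked with marker lists. Summed definitive endoderm markers reached 2096 to 2608 CPM in endoderm and at most 285 CPM elsewhere. Epcam, the sort marker, stood at 253, 216 and 232 CPM in endoderm and at most 62.8 CPM elsewhere. Hematopoietic and endothelial markers summed to 2760 to 3951 CPM in hematopoietic mesoderm and to at most 1088 CPM elsewhere. The sum of the cardiac mesoderm markers, a list that shares Kdr with the hematopoietic list, set the types apart less well. By gene, 4 (YFP+) and 3 (YFP-) of 11 tested were called higher than in hematopoietic mesoderm (edgeR adjusted p under 0.05) and 0 lower. The median log2 fold changes there were 2.41 and 3.38. The cardiac sums were 1829 to 1954 CPM in YFP+ and 1770 to 2001 in YFP- cardiac mesoderm. They were 1388 to 1497 CPM in hematopoietic mesoderm and 191 to 227 in endoderm. Extraembryonic ectoderm markers summed to 830 to 941, 795 to 972, 258 to 935 and 336 to 474 CPM in the same order. This list holds Bmp4 and Hand1, both called lower in endoderm in all 3 endoderm pairs, and Hand1 is also on the cardiac list. No other gene of it was called in these pairs. Its median log2 fold change was 2.40, 0.47 and 0.26 for endoderm against YFP+, YFP- and hematopoietic mesoderm, so the sum and the typical gene differ in direction. The endoderm sort also held visceral endoderm markers, which summed to 1968 to 5603 CPM against at most 95.1 CPM in the other types, and epiblast markers, which summed to 1258 to 1321 CPM against at most 819 CPM. Of the 9 epiblast markers, 1, 0 and 3 were called higher in endoderm than in YFP+, YFP- and hematopoietic mesoderm. Whether such markers came from other cells in the sort was not tested. The part of any such cells, and of the higher number of genes detected, in the levels below was not tested either. In sorted bulk samples fewer cells of a type and less RNA per cell cannot be told apart.

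The axoneme genes were spread unevenly over the types. In endoderm, 48 of the 65 averaged at least 1 CPM and 5 were at 0 in all libraries. At least 1 CPM was reached by 24 in YFP+ cardiac mesoderm, 25 in YFP- cardiac mesoderm and 22 in hematopoietic mesoderm. In these types 26, 27 and 33 were at 0 in all libraries of the type. Counted by library, 43 to 47 of the 65 reached 1 CPM in endoderm and 14 to 22 in the others. Of all genes, 14533 to 14785 did so in the endoderm libraries and 10113 to 13038 in the others. The median gene of the 65 averaged 6.37 CPM in endoderm, 0.193 in YFP+ and 0.0989 in YFP- cardiac mesoderm, and 0 in hematopoietic mesoderm. Together the 65 genes took 1923, 2225 and 1484 CPM in the endoderm libraries, 1058, 795 and 851 in YFP+ cardiac mesoderm, 750.1, 768 and 829 in YFP- cardiac mesoderm and 785, 680.3 and 877 in hematopoietic mesoderm. The 3 endoderm sums all lay above the other 9. Rfx3 made up much of each sum, and without it the endoderm libraries held 1280.2, 1426 and 895 CPM and the others 470.2 to 829 CPM.

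**Figure D1:**
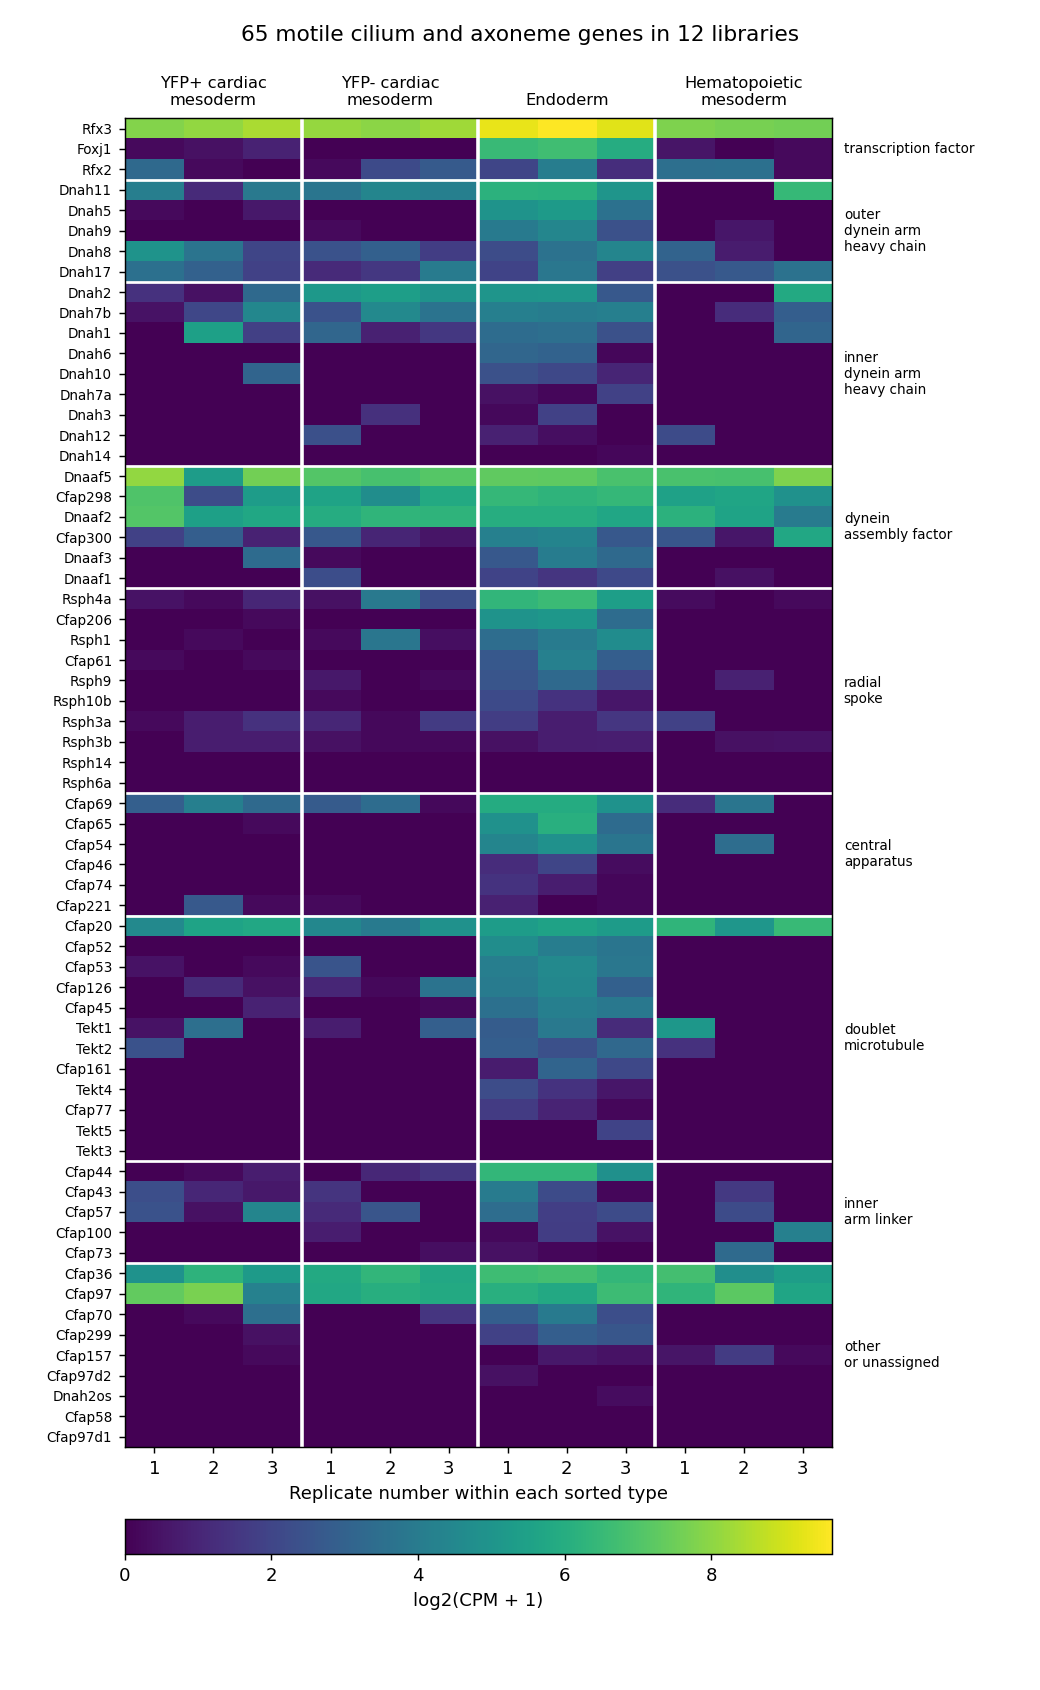
Level of each of the 65 genes (rows, grouped by role and ordered by endoderm mean) in each of the 12 libraries (columns, grouped by sorted type), coloured by log2(CPM + 1). The endoderm columns are filled where most others are dark, while Rfx3, Dnaaf5, Cfap298, Dnaaf2, Cfap20, Cfap36 and Cfap97 are bright in all 4 types.

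Foxj1 (ENSMUSG00000034227.7, GRCm38 chr11:116330704-116335399), the forkhead factor that drives motile cilium genes, was read at 92.9, 102 and 61.7 CPM in the endoderm libraries. It stood at 0.200, 0.355 and 0.894 CPM in YFP+ cardiac mesoderm, at 0 in all 3 libraries of YFP- cardiac mesoderm, and at 0.447, 0 and 0.192 CPM in hematopoietic mesoderm. The lowest endoderm library was thus far above the highest of the other 9. The mean of 85.5 ± 21.1 CPM (SD, n = 3) in endoderm was 177-fold that of YFP+ cardiac mesoderm and at least 185-fold higher than in YFP- cardiac mesoderm, taking 3 counts per library as the floor. Against hematopoietic mesoderm, where only 3 counts were seen, the ratio was 437 with an exact 95% counting interval of 149 to 2123. The log2 fold change was 7.27 ± 1.20 (SE, edgeR adjusted p = 0.0123) against YFP+ cardiac mesoderm, 11.94 ± 1.54 (edgeR adjusted p = 0.00320) against YFP- cardiac mesoderm and 8.41 ± 1.28 (edgeR adjusted p = 0.00516) against hematopoietic mesoderm. Such intervals and floors cover counting error only. The first of these differences missed the threshold of 0.05 when certain libraries were dropped. Its edgeR adjusted p was 0.0510 without YFP+ replicate 1, 0.0533 without YFP+ replicate 2, and 0.0879, 0.0903 and 0.0568 without endoderm replicates 1, 2 and 3. Over all its alternatives it ran from 1.37e-12 with DESeq2 to 0.0903.

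Rfx3 (ENSMUSG00000040929.10, chr19:27761721-28011166) binds the X-box, a promoter element of cilium genes. It was read at 643, 799 and 589 CPM in endoderm, at 229.8, 267 and 338 in YFP+ cardiac mesoderm, at 279.8, 250.4 and 307 in YFP- cardiac mesoderm and at 217, 204 and 194 in hematopoietic mesoderm. Unlike Foxj1 it was plentiful in every library, and the difference was one of level. Its endoderm mean was 2.43-fold that of YFP+, 2.42-fold that of YFP- cardiac mesoderm and 3.31-fold that of hematopoietic mesoderm, with edgeR adjusted p of 0.00455, 0.00320 and 0.000454 and a highest value of 0.0317 over the alternatives of these 3 pairs. Rfx2, a close relative, was uneven within every type, with 3.01, 15.8 and 1.39 CPM in endoderm and 10.5, 10.9 and 0.192 CPM in hematopoietic mesoderm. None of its 3 endoderm comparisons passed (edgeR adjusted p = 0.899, 1 and 0.962). Per kilobase of exon, Rfx3 was the most abundant of the 65 in endoderm at 61.4 CPM, and Foxj1 stood at 32.6 CPM. On the same scale Cfap298 stood at 52.0, Dnaaf5 at 39.99, Rsph4a at 19.8, Cfap44 at 7.65 and the long dynein gene Dnah5 at 1.67 CPM per kilobase.

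Of the other RFX genes, Rfx6 was read at 15.6, 13.2 and 6.72 CPM in endoderm and at no more than 0.179 CPM elsewhere, and it passed against hematopoietic mesoderm (edgeR adjusted p = 0.0396). Rfx7 stood at 301 to 360 CPM in endoderm and at 309 to 492 CPM in the other types, and passed in no endoderm pair (edgeR adjusted p = 0.261, 0.236 and 0.121). Rfx1, Rfx4 and Rfx5 did not pass either, and Rfx8 was at 0 in all 12 libraries.

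The promoters of the members were searched for the X-box, the element that RFX factors bind, over the 250 bases before each RefSeq start of GRCm38.p6. The RefSeq table held 58 starts for 51 of the 65 members. Foxj1, Rsph1, Rsph4a and Cfap65, all called higher in endoderm, were among the members without a start and were not searched. The X-box, in either strand, lay in 6 of these 51 members (11.8%) and in 1.49% of the 27025 genes of the table. The arm GTTGCC, which an X-box may contain, lay in 16 members (31.4%) against 11.8% of genes. The forkhead core TGTTTAC lay in 4 members (7.84%) against 3.54% of genes, and CCAAT in 18 members (35.3%) against 37.5% of genes. The median GC content was 54.6% over the member windows and 52.4% over all. These matches describe letters, not bound sites. The 6 members with an X-box were Cfap44, Cfap45, Cfap298, Dnaaf2, Tekt2 and Cfap58. Cfap44 and Cfap45 are shown in full because they were also called higher in endoderm, with the X-box in capitals and each sequence ending at the base before the start:
Cfap44 promoter, chr16:44394549-44394798, plus strand: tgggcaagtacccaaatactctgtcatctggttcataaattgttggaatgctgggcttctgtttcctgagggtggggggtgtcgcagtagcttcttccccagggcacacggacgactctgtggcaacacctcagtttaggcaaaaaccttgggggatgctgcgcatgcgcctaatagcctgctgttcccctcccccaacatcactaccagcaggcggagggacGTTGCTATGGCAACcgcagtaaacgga
Cfap45 promoter, chr1:172520880-172521129, plus strand: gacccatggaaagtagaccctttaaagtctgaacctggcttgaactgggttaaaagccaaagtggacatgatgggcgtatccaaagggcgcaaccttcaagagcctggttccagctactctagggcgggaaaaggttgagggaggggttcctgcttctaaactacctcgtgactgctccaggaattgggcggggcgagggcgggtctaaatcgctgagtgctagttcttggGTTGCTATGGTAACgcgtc
The X-box lay at positions -27 to -14 in Cfap44 and -19 to -6 in Cfap45, counted from the start. The GENCODE annotation begins Cfap45 upstream of this window, at position 172520801, so the window is the RefSeq start only. The X-box letters of the other 4, chosen for display after their levels were seen, are given on the strand of the gene, without their flanks:
Cfap298, from -188 to -175: GTTGCCCGGGCAAC
Cfap298, from -69 to -55: GTTGCCCCTGGCAAC
Dnaaf2, from -17 to -4: GTTACTATGGCAAC
Tekt2, from -29 to -17 of the RefSeq start farthest upstream: GTTGCTCGGCAAC
Cfap58, from -59 to -47: GTTGCCAGGCGAC
Their levels differed widely. Cfap44 and Cfap45 were at most 1.78 CPM outside endoderm, Cfap298 and Dnaaf2 were read in all 12 libraries, Tekt2 was low in endoderm and mostly at 0 elsewhere, and Cfap58 was at 0 in all 12.

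Among the outer dynein arm heavy chains, Dnah5 (ENSMUSG00000022262.7), a motor whose loss causes primary ciliary dyskinesia, was read at 30.3, 37.0 and 11.2 CPM in endoderm. In the other types it had 0.200, 0 and 0.537 CPM in YFP+ cardiac mesoderm and no count in the 6 libraries of YFP- cardiac mesoderm and hematopoietic mesoderm. It was at least 44.6-fold higher in endoderm than in hematopoietic mesoderm, with an edgeR adjusted p of 0.0297 that rose to between 0.0616 and 0.113 without hematopoietic mesoderm replicate 1 or any 1 endoderm library. Dnah9, a second motor of the same arms, was read at 14.9, 20.4 and 4.18 CPM in endoderm and at no more than 0.512 CPM in any other library, but passed in no pair (edgeR adjusted p from 0.0775 to 0.128).

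Dnah11, a heavy chain known from mutants with randomised left-right asymmetry, had a different pattern. It stood at 71.6, 69.1 and 31.4 CPM in endoderm, 16.6, 1.24 and 14.0 in YFP+ cardiac mesoderm, 12.5, 19.8 and 16.8 in YFP- cardiac mesoderm, and 0, 0 and 87.4 in hematopoietic mesoderm. The highest single value was therefore in hematopoietic mesoderm replicate 3. With all libraries its endoderm difference from hematopoietic mesoderm did not pass (log2 fold change 0.76, edgeR adjusted p = 0.853), and without that library it did (11.39, edgeR adjusted p = 0.00711). Exons of Dnah11 share 642 bases with the opposite-strand gene Cdca7l, and the strand setting of the counting is not given in the sources used here. Dnah8 and Dnah17 were read in all 4 types, at most 29.8 and 14.99 CPM, with libraries that overlapped between types.

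The inner arm heavy chains varied between libraries of a type. Dnah2 stood at 31.5, 32.9 and 5.32 CPM in endoderm, 34.6, 40.9 and 29.8 in YFP- cardiac mesoderm, 1.60, 0.355 and 8.76 in YFP+ cardiac mesoderm and 0, 0 and 56.5 in hematopoietic mesoderm. It was one of 2 members with their highest mean in YFP- cardiac mesoderm, the other being Dnah12. As with Dnah11, its difference between endoderm and hematopoietic mesoderm passed only without hematopoietic mesoderm replicate 3 (edgeR adjusted p = 0.0293 against 0.988). Dnah7b was read at 16.9, 15.5 and 17.0 CPM in endoderm and at 0 to 22.5 CPM elsewhere, and its near copy Dnah7a at no more than 2.66 CPM in endoderm and at 0 elsewhere. Reads could have been split between these copies or left out of both. Dnah1 reached 43.9 CPM in 1 library of YFP+ cardiac mesoderm and 4.31 to 10.5 CPM in endoderm. Dnah6 was read at 8.03, 7.16 and 0.127 CPM in endoderm and at 0 in the other 9 libraries. No inner arm heavy chain was called in any pair.

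Radial spokes carry signals from the central apparatus to the dynein arms. The 10 genes of this role summed to 137, 172 and 89.5 CPM in endoderm, 0.799 to 3.76 in YFP+ cardiac mesoderm, 2.61 to 27.1 in YFP- cardiac mesoderm and 0.575 to 2.91 in hematopoietic mesoderm. Rsph4a (ENSMUSG00000039552.7), a protein of the spoke head, was read at 80.8, 94.4 and 42.0 CPM in endoderm. It stood at 0.400, 0.178 and 1.07 CPM in YFP+ cardiac mesoderm, 0.347, 14.1 and 4.01 in YFP- cardiac mesoderm and 0.224, 0 and 0.192 in hematopoietic mesoderm. The endoderm libraries lay above all others, and YFP- cardiac mesoderm replicate 2 was the highest of the rest. Its log2 fold change was 8.71 ± 1.60 (SE, edgeR adjusted p = 0.00943) against hematopoietic mesoderm, where the ratio to the 2 counts seen was 552 with an exact 95% counting interval of 153 to 4561. Against YFP+ cardiac mesoderm it was 6.85 ± 1.43 (edgeR adjusted p = 0.0314, but 0.0647 to 0.149 without any 1 of the 6 libraries), and against YFP- cardiac mesoderm it did not pass (edgeR adjusted p = 0.233).

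Rsph1, also of the spoke head, was read at 10.04, 14.998 and 25.1 CPM in endoderm, at 0 in hematopoietic mesoderm, at no more than 0.178 CPM in YFP+ cardiac mesoderm, and at 0.174, 12.8 and 0.297 CPM in YFP- cardiac mesoderm. Here endoderm replicate 3 was the highest and endoderm replicate 1 fell below 1 library of YFP- cardiac mesoderm. Set against hematopoietic mesoderm, Rsph1 was at least 28.5-fold higher in endoderm (edgeR adjusted p = 0.0487, 0.0513 with RLE scaling, and 0.0780 to 0.142 without any 1 of the 6 libraries). Cfap206, which docks a radial spoke to the microtubule, stood at 30.1, 33.7 and 9.63 CPM in endoderm, with a single count among the other 9 libraries. Its edgeR adjusted p against hematopoietic mesoderm was 0.0296, and 0.0605 to 0.113 without hematopoietic mesoderm replicate 1 or any 1 endoderm library. Cfap61, of the complex at the spoke base, was read at 5.35, 17.3 and 6.46 CPM in endoderm and had 2 counts elsewhere, both in YFP+ cardiac mesoderm. It passed against hematopoietic mesoderm at an edgeR adjusted p of 0.0411, which became 0.0684 to 0.142 without any 1 of the 6 libraries and 0.0621 with no expression filter. Rsph9, of the head, reached 3.17 to 8.94 CPM in endoderm and at most 0.854 CPM elsewhere. Rsph3a and Rsph3b, near copies of a stalk protein, were at or below 2.68 CPM in every library, and Rsph6a and Rsph14 were at 0 in all 12.

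The central apparatus genes summed to 113, 159.9 and 51.6 CPM in endoderm and to at most 22.2 CPM in any other library. Cfap65 stood at 28.4, 67.7 and 9.25 CPM in endoderm with 1 count in the other 9 libraries. It was at least 75.9-fold higher than in YFP- cardiac mesoderm (edgeR adjusted p = 0.0441) and at least 60.0-fold higher than in hematopoietic mesoderm (edgeR adjusted p = 0.0264). The first value rose to between 0.1003 and 0.201 without any 1 of the 6 libraries, and the second to between 0.0527 and 0.115 without hematopoietic mesoderm replicate 1 or any 1 endoderm library. Cfap54 was read at 19.9, 28.8 and 12.4 CPM in endoderm and at 0 elsewhere except for 9.90 CPM in hematopoietic mesoderm replicate 2. Cfap69 was read in all 4 types, at 60.9, 59.7 and 29.4 CPM in endoderm and at 0 to 16.7 CPM in the others, and its libraries did not overlap. Neither passed in an endoderm pair (edgeR adjusted p from 0.138 to 0.534 for Cfap54 and from 0.217 to 0.586 for Cfap69).

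Cfap44 (ENSMUSG00000071550.7), part of the complex that tethers an inner arm dynein, reached 82.7, 82.3 and 28.02 CPM in endoderm. It stood at 0, 0.178 and 0.715 CPM in YFP+ cardiac mesoderm, 0, 1.12 and 1.78 in YFP- cardiac mesoderm and 0 in hematopoietic mesoderm, over which it was at least 109.8-fold higher. The log2 fold change there was 11.53 ± 2.14 (SE, edgeR adjusted p = 0.0144), and the call was lost without endoderm replicate 1 (0.0630) or 2 (0.0635). Against YFP+ cardiac mesoderm it did not pass (edgeR adjusted p = 0.0544). Its partner Cfap43 was uneven within endoderm, at 15.1, 3.58 and 0.127 CPM, and was the only member to hold at least 10 CPM in 1 endoderm library and 3 counts or fewer in another. Cfap57, an adaptor of another inner arm dynein, was highest on average in YFP+ cardiac mesoderm, at 4.40, 0.355 and 19.9 CPM.

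Of the proteins inside the doublet microtubules, Cfap45 and Cfap52 were called. Cfap45 stood at 10.9, 16.8 and 13.6 CPM in endoderm, at 0, 0 and 0.894 CPM in YFP+ cardiac mesoderm, at 0, 0 and 0.148 in YFP- cardiac mesoderm and at 0 in hematopoietic mesoderm. Cfap52 stood at 25.4, 15.8 and 12.3 CPM in endoderm and had no count in the other 9 libraries, which puts it at least 30.5-fold higher than in hematopoietic mesoderm. Both passed only against hematopoietic mesoderm (edgeR adjusted p = 0.0449 and 0.0439), and both lost the call without any 1 of the 6 libraries (0.0720 to 0.135 and 0.0619 to 0.148). Cfap45 also lost it with no expression filter (0.0521). Cfap53, needed for left-right asymmetry, was read at 16.2, 22.4 and 13.2 CPM in endoderm and at most 4.69 CPM elsewhere. Cfap126 was read at 15.2, 21.3 and 6.85 CPM in endoderm and reached 11.9 CPM in YFP- cardiac mesoderm replicate 3. Neither was called (edgeR adjusted p = 0.0641 and 0.0520 against hematopoietic mesoderm).

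Among the tektins, filament proteins of the doublets, Tekt1 reached 33.1 CPM in hematopoietic mesoderm replicate 1 with 0 in the other libraries of that type, and 1.27 to 14.0 CPM in endoderm. Tekt2 was read at 6.36, 4.13 and 8.62 CPM in endoderm. Tekt4 had 0.507 to 3.68 CPM and Tekt5 up to 2.79 CPM, in endoderm only. Tekt3 had no count at all.

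A smaller set was read in every library. Cfap20, Cfap36, Cfap97, Cfap298, Dnaaf2 and Dnaaf5 averaged at least 10 CPM in each type and stood at 3.73 to 267 CPM over the 12 libraries. Dnaaf2, Dnaaf5 and Cfap298 are assembly factors that fold dynein arms before they reach the cilium, and Cfap20 is a small tubulin-binding protein. Dnaaf5 stood at 155, 150.1 and 116 CPM in endoderm and at 267, 39.6 and 193 CPM in YFP+ cardiac mesoderm. None of the 6 was called by edgeR in any of the 6 pairs (lowest edgeR adjusted p = 0.154), with endoderm log2 fold changes from -0.96 to 0.90. Of the other assembly factors, Dnaaf3 had 5.35 to 15.4 CPM and Dnaaf1 1.79 to 3.42 CPM in endoderm, and Cfap300 had 17.6, 19.5 and 5.32 CPM in endoderm and 54.0 CPM in hematopoietic mesoderm replicate 3.

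**Figure D2:**
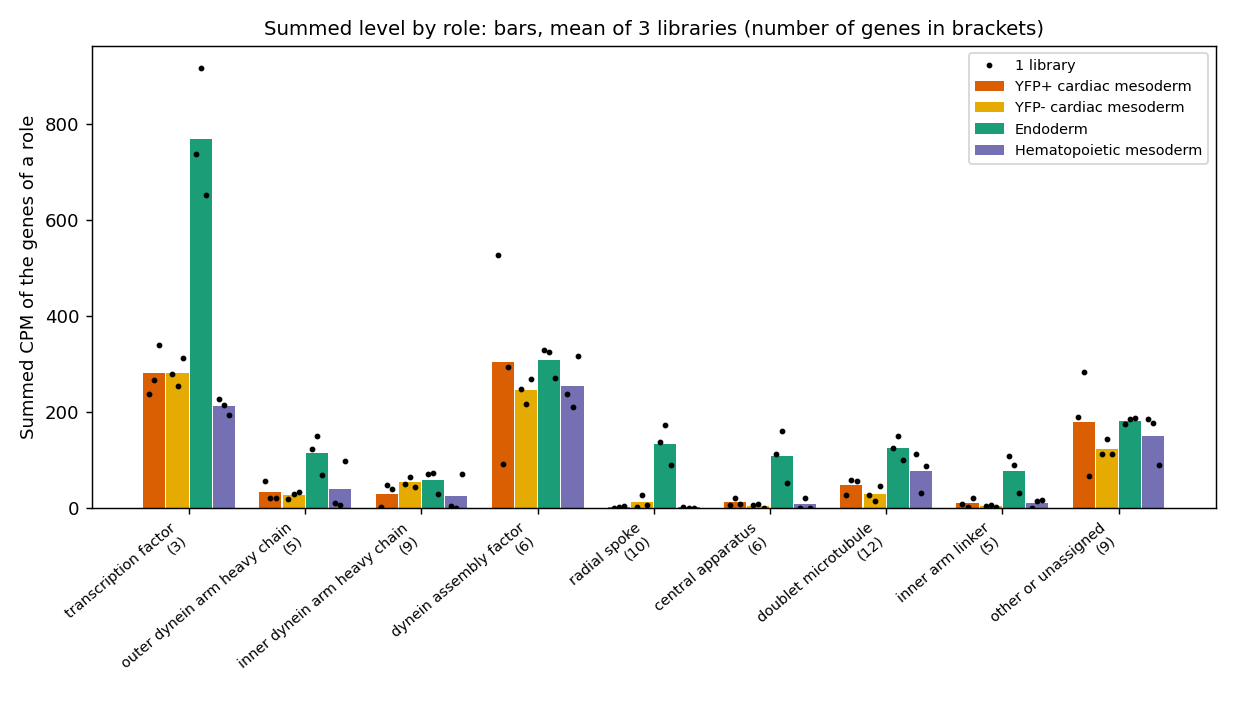
Summed CPM of the genes of each role (number of genes in brackets) in each sorted type: bars are means of 3 libraries, points are single libraries. Radial spoke genes average 133 CPM in endoderm and 12.2 or less elsewhere. Dynein assembly factors average between 245 and 309 CPM in all 4 types, with single libraries from 92.9 to 528 CPM, both in YFP+ cardiac mesoderm. Heights of different roles are not compared because the genes differ in length.

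By the edgeR quasi-likelihood fit, 41 of the 65 genes had enough counts to be tested. A gene that is high only in endoderm passes this filter through endoderm, so the tested ones are not all members and counts over them are descriptive. Against YFP+ cardiac mesoderm 3 were called, all higher in endoderm (Foxj1, Rfx3 and Rsph4a), where 0.586% of the 14170 genes tested were called higher in endoderm. Against YFP- cardiac mesoderm 3 were called (Cfap65, Foxj1 and Rfx3), beside 0.6% of all genes. Against hematopoietic mesoderm 11 were called, all higher in endoderm, beside 3.23% of all genes. These were Cfap206, Cfap44, Cfap45, Cfap52, Cfap61, Cfap65, Dnah5, Foxj1, Rfx3, Rsph1 and Rsph4a. Nothing is read from these shares, since the family was put forward with the same contrasts in view. Leaving out single libraries gave 1 to 2, 2, and 3 to 9 calls in the 3 pairs. Of all genes, 0.473% to 1.04%, 0.46% to 0.658% and 1.2% to 6.41% were then called in either direction. The fewest calls in the third pair (3) came without endoderm replicate 1 or 2. DESeq2 gave 11, 12 and 14, where it called 6.56%, 4.27% and 13.1% of all genes in either direction. With the replicate number as a block, edgeR gave 2, 2 and 5 calls, beside 1.26%, 1.01% and 3.85% of all genes in either direction. Rsph4a then lost its call against YFP+ cardiac mesoderm, Cfap65 against YFP- cardiac mesoderm, and Cfap45, Cfap52, Cfap61, Cfap65, Cfap206 and Dnah5 theirs against hematopoietic mesoderm. Same-numbered libraries share a date-like code in their file names whose meaning is not given in the sources used here. The median log2 fold change of the 41 was 1.97, 2.59 and 3.33 in the 3 pairs, and that of all genes -0.01, -0.01 and 0.07. The 3 comparisons share the endoderm libraries. Exons of 23 of the 65 genes overlap a counted gene on the opposite strand, among the called ones Cfap65 (287 bases), Cfap52 (194), Cfap61 (57) and Cfap45 (3), and reads there cannot be told apart unless the counting used strand. Foxj1 and Rfx3 were higher in endoderm than in each other type, as were 0.303% of all genes.

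**Figure D3:**
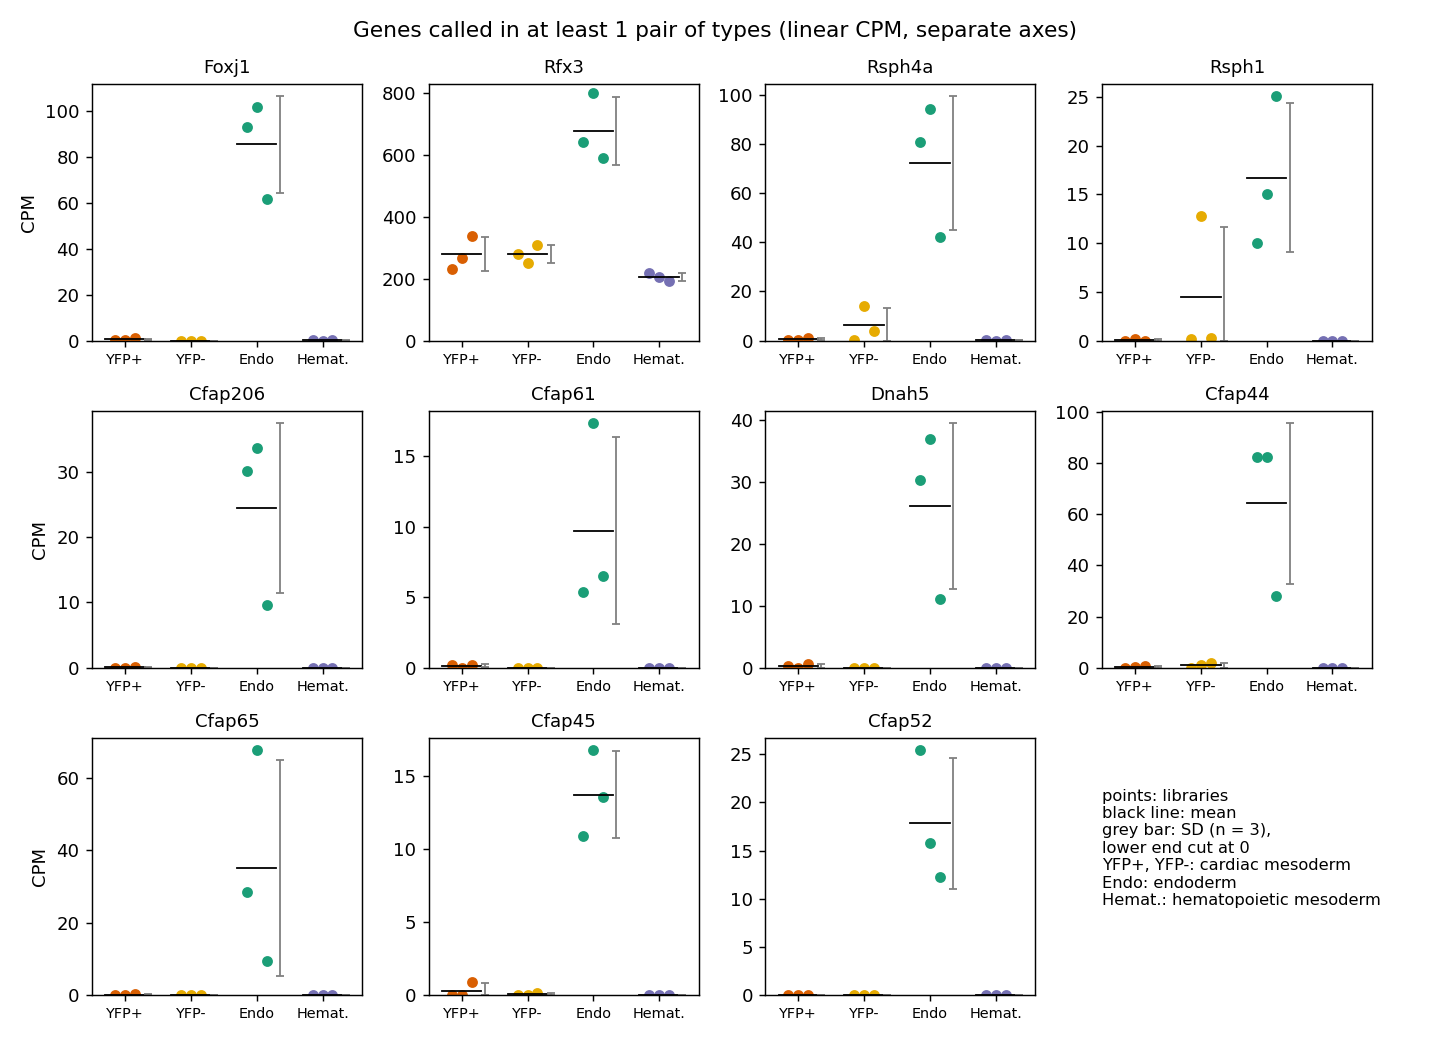
CPM of the 11 genes called in at least 1 pair of types, by library (points), with the mean (black line) and SD (grey bar, n = 3, lower end stopped at 0) of each type, on linear axes that differ between panels. Rfx3 is read in all types and is higher in endoderm, at 589 to 799 CPM, while the other 10 are near 0 in most libraries outside endoderm, apart from 1 or 2 libraries of YFP- cardiac mesoderm for Rsph1 and Rsph4a.

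Another count needs no filter and no fit. In 24 of the 65 genes all 3 endoderm libraries lay above all 9 others, as they did in 3.97% of all genes. These included 5 of 10 radial spoke genes, 5 of 6 central apparatus genes, 6 of 12 doublet genes, 2 of 5 outer arm heavy chains and 0 of 6 assembly factors. Of the 24, edgeR called 10 in at least 1 pair. Another 8 had too few counts to be tested: Cfap46, Cfap74, Cfap77, Cfap161, Dnah6, Dnah7a, Rsph10b and Tekt4. The other 6, Cfap53, Cfap54, Cfap69, Cfap299, Dnah9 and Rsph9, were tested and not called by edgeR. DESeq2 called Dnah9 and Cfap54 against both cardiac mesoderm types and Cfap53 against hematopoietic mesoderm. Within the libraries that carry the same replicate number, endoderm was the highest for 40, 43 and 36 of the 65 genes at numbers 1, 2 and 3, and for 26 at all 3 numbers, where all genes gave 19.5%, 19.1%, 19.6% and 5.47%. These shares and the 3.97% are taken over all 38924 genes. No library had a count for more than 18618 of them, and genes without counts lower the shares. In all, 12 of the 65 genes had counts in endoderm and none elsewhere. The highest mean lay in endoderm for 43 genes and in YFP+ cardiac mesoderm for 7. It lay in YFP- cardiac mesoderm for 2 and in hematopoietic mesoderm for 8, with 5 at 0 throughout. The matching shares over all genes were not counted. Each endoderm library had counts for more genes than any other library, so nothing particular to the 65 is read from these numbers.

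**Figure D4:**
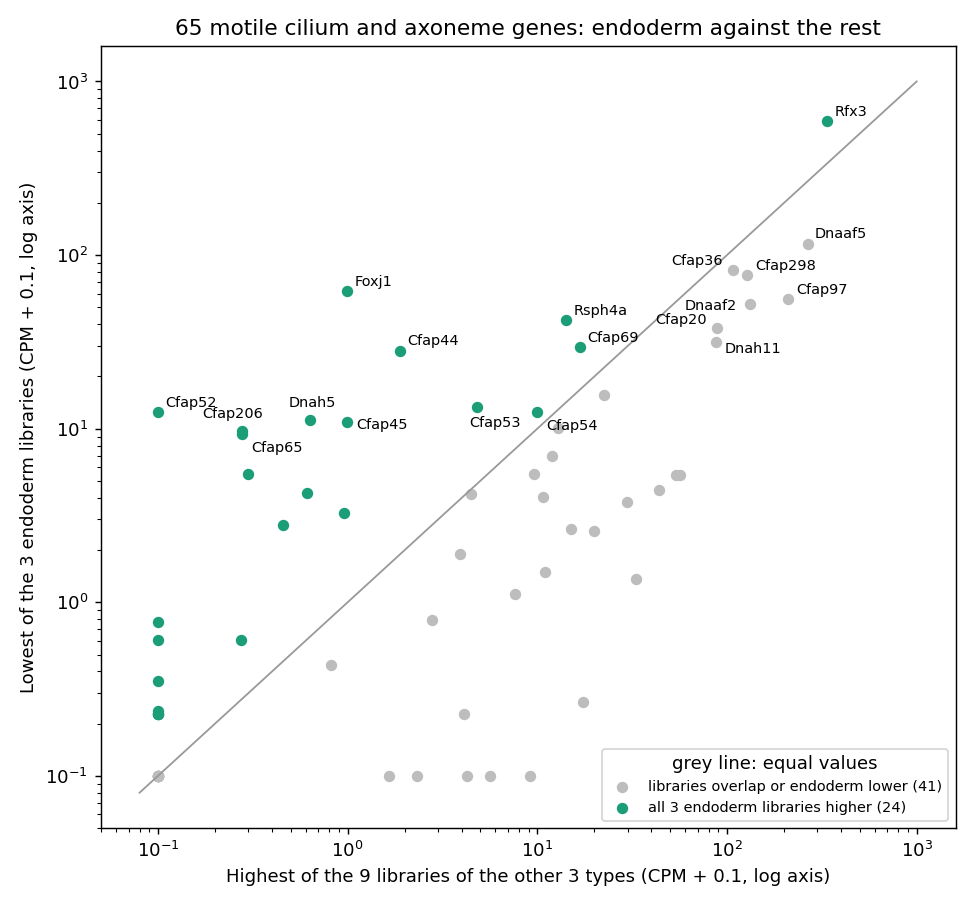
Each of the 65 genes by its highest CPM among the 9 libraries of the other types (x) and its lowest CPM among the 3 endoderm libraries (y), both with 0.1 added and on log axes; the line marks equal values. The 24 green genes lie above the line, led in height by Rfx3, Foxj1, Rsph4a, Cfap69 and Cfap44, and the broadly read Dnaaf5, Cfap36, Cfap298, Cfap97, Dnaaf2 and Cfap20 lie below it.

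Between the 3 mesoderm types no member was called by edgeR. For YFP+ against YFP- cardiac mesoderm edgeR called 0% of all genes. An unadjusted p under 0.05 was given to 7 of the 41 members tested and to 7.49% of all genes, and DESeq2 called 0 members and 0.79% of all genes. For YFP+ cardiac mesoderm against hematopoietic mesoderm edgeR called 1.79% of all genes, the unadjusted p was under 0.05 for 5 members and 19.5% of all genes, and DESeq2 called 0 members and 10.6% of all genes. For YFP- cardiac mesoderm against hematopoietic mesoderm edgeR called 0.593% of all genes, the unadjusted p was under 0.05 for 8 members and 17.4% of all genes, and DESeq2 called 4 members and 7.42% of all genes. Without hematopoietic mesoderm replicate 3, edgeR called 1 member in the second pair and 2 in the third, beside 2.79% and 1.43% of all genes. Foxj1, at 8 counts over the 3 libraries of YFP+ cardiac mesoderm and 0 in those of YFP- cardiac mesoderm, differed by a log2 fold change of 4.67 that did not pass (edgeR adjusted p = 0.626).

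Some members were high in a single library of a type. Members that reached 10 CPM in a library of a type were checked for 3 counts or fewer in another library of that type. This held for 5 of 16 in YFP+ cardiac mesoderm, 3 of 14 in YFP- cardiac mesoderm and 7 of 15 in hematopoietic mesoderm. In endoderm it held for 1 of 35. The same shares over all genes were not counted, and the endoderm libraries were deeper than those of hematopoietic mesoderm. The 7 in hematopoietic mesoderm were Cfap69, Cfap100, Cfap300, Dnah2, Dnah11, Rfx2 and Tekt1. Replicate 3 held the high value for Cfap100, Cfap300, Dnah2 and Dnah11, and replicate 1 for Tekt1.

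Within endoderm, replicate 3 was the low library for most axoneme genes. Among the 48 members averaging at least 1 CPM in endoderm, 33 (68.8%) were lowest in replicate 3, 7 in replicate 1 and 8 in replicate 2, while 32% of all 15115 genes at that level were lowest in replicate 3. The separate list of other axoneme genes described below gave 38 of 58 (65.5%). Foxj1 fell in with them, at 61.7 CPM against 92.9 and 102, as did Cfap44, at 28.02 against 82.7 and 82.3. Rsph1 and Tekt2 were highest there. The node gene Pkd1l1 was also lowest in this library, at 95.1 CPM against 163 and 238, while the node gene Chrd was lowest in replicate 1. Of 11 node and left-right genes, 6 had their lowest value in replicate 3, 3 in replicate 1 and 2 in replicate 2. The part of a different share of node cells in this library was not tested.

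**Figure D5:**
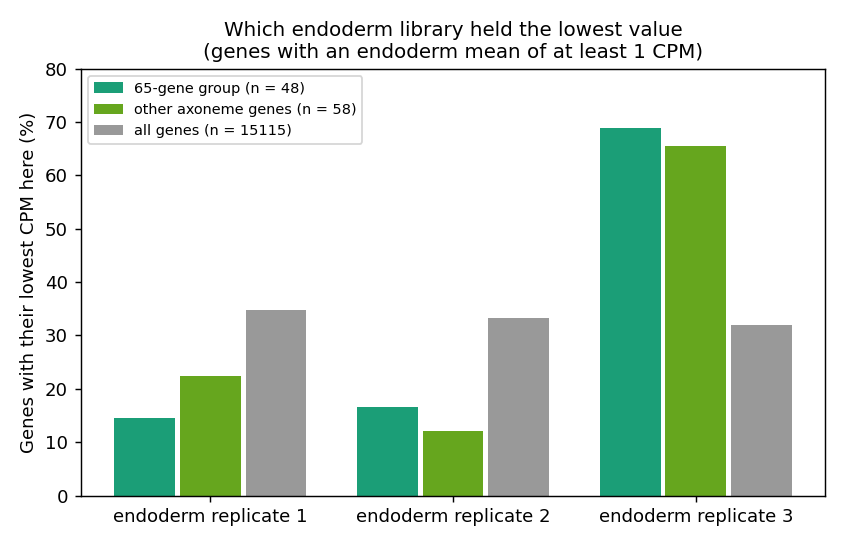
Share of genes (%) whose lowest CPM among the 3 endoderm libraries fell in each replicate, for genes with an endoderm mean of at least 1 CPM: the 65-gene group (48 genes), other axoneme genes (58) and all genes (15115). Replicate 3 is the lowest for 68.8% of the group and 65.5% of the other axoneme genes, against 32% of all genes.

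Axoneme genes outside the naming rule, compiled from general knowledge, were read in the same way. Of 69 such genes 49 were tested. Against YFP+ cardiac mesoderm, YFP- cardiac mesoderm and hematopoietic mesoderm, 1, 1 and 8 were called higher in endoderm. The shares of all genes tested were 0.586%, 0.6% and 3.23%. Mns1 was called lower in the last pair. Kif27, a kinesin needed for motile cilia, was called in all 3, at 47.2, 52.3 and 26.2 CPM in endoderm and at most 0.521 CPM elsewhere (edgeR adjusted p = 0.0489, 0.0490 and 0.0259). The others were Ak7, Ccdc151, Efhc2, Lrrc6, Nme5, Pifo and Stk36. Ccdc151, a docking factor of outer arms, stood at 18.6, 15.1 and 11.8 CPM in endoderm and had 0.174 CPM in 1 other library. Stk36 was read in both cardiac mesoderm types too, at 1.19 to 17.7 CPM, and was near 0 in hematopoietic mesoderm. Mns1 was plentiful everywhere, at 216 to 269 CPM in endoderm and 328 to 357 in hematopoietic mesoderm. All 3 endoderm libraries lay above the other 9 for 24 of the 69, and for 3.97% of all 38924 genes.

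Genes needed for every cilium, motile or not, were counted in the same fit. Of 28 intraflagellar transport genes, which carry parts along the cilium, 27 were tested and 0 were called against either cardiac mesoderm type by edgeR. Of all genes, 1.54% (YFP+) and 1.31% (YFP-) were called there in either direction. Against hematopoietic mesoderm 2 of the 27 were called, Ift43 and Ift81, both higher in endoderm, beside 3.23% of all genes. Ift43 was also called higher in YFP+ and in YFP- cardiac mesoderm than in hematopoietic mesoderm. For none of the 28 did the endoderm libraries lie above all others, beside 3.97% of all genes. Their sum was 1503 to 1813 CPM in endoderm, 1202 to 1498 in the 2 cardiac mesoderm types and 939 to 1165 in hematopoietic mesoderm. The difference between this list and the axoneme genes was not tested.

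Of 12 regulators of multiciliated cells, which bear many motile cilia, 9 were tested. In the 3 endoderm pairs 1, 0 and 2 were called, beside 1.54%, 1.31% and 5.65% of all genes in either direction. Gmnc reached 0.963 CPM, Mcidas 3.30 CPM and Deup1 5.37 CPM in their highest libraries, and Cdc20b was at 0 throughout. Ccno stood at 22.4, 40.3 and 9.89 CPM in endoderm and at most 0.224 CPM elsewhere, and passed against hematopoietic mesoderm (edgeR adjusted p = 0.0318). Myb was called higher in endoderm than in YFP+ cardiac mesoderm (edgeR adjusted p = 0.0225) but was highest in hematopoietic mesoderm, at 94.3, 80.8 and 5.36 CPM. Plk4, which also duplicates centrioles in dividing cells, was called lower in endoderm when set against hematopoietic mesoderm (edgeR adjusted p = 0.0456).

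The node list holds genes of the structure whose motile cilia set left and right, and 9 of its 11 genes were tested. Called higher in endoderm were 2 against YFP+ cardiac mesoderm, 3 against YFP- cardiac mesoderm and 5 against hematopoietic mesoderm, and none lower. Of all genes tested, 0.586%, 0.6% and 3.23% were called higher in endoderm in these pairs. Pkd1l1, a channel protein of node cilia, stood at 163, 238 and 95.1 CPM in endoderm and at 0 to 0.999 CPM elsewhere, with edgeR adjusted p of 0.000399, 0.000136 and 0.000109 against the 3 other types. Chrd stood at 51.7, 88.6 and 70.5 CPM against at most 0.683 CPM and was also called in all 3 pairs. Noto, a node homeobox factor, stood at 14.2, 26.97 and 11.3 CPM against at most 0.179 CPM and was called against YFP- cardiac mesoderm and hematopoietic mesoderm. Cfc1 and Lefty2 were called against hematopoietic mesoderm, though Lefty2 was highest in cardiac mesoderm, at 55.8 to 138 CPM. Shh was read at 11.71, 0.275 and 0.254 CPM in endoderm, and Dand5 at 5.64 to 6.69 CPM in endoderm and up to 22.8 CPM in hematopoietic mesoderm. The 11 genes, without Foxj1, summed to 383 to 672 CPM in endoderm, 80.5 to 252 in YFP+ cardiac mesoderm, 182 to 305 in YFP- cardiac mesoderm and 212 to 364 in hematopoietic mesoderm, where T, a general mesoderm gene, made up 209.6 to 341 CPM. The part of node cells in the levels of the axoneme genes was not tested.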

How the data were processed

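Gene expression was measured by RNA-seq in 12 libraries of sorted cells from E7.25 embryos, 3 for each of 4 types. Per the labels' protocols, RNA was extracted with a nanoprep kit for small samples and amplified with NuGEN low-input kits. Per the submitters' processing notes, the authors used STAR 2.5.0a, Picard, HTSeq 0.6.0 and DESeq2 with build mm10 (GRCm38), and they deposited raw counts per gene. The annotation version and the strand setting are not given in the sources used here. The 5 summary rows of each file were left out of library sizes, and gene rows held 18.3% to 21.5% of all counts in a file.

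Symbols came from a GENCODE M21 table, which named 37607 of the 38924 genes. Counts were compared with edgeR 4.0.16 (R 4.3.3): TMM scaling, filterByExpr (14170 genes), quasi-likelihood tests with 1 coefficient per type over all 12 libraries, two-sided, Benjamini-Hochberg adjustment over all genes tested and a threshold of 0.05. The SE of a log2 fold change was its size divided by the root of F. A fold is the ratio of mean CPM, or a bound against 3 counts per library where a type was at 0, or, with 1 to 3 counts, a ratio of pooled CPM with an exact 95% interval. A fitted log2 fold change against a type at 0 depends on the prior count and is no bound. The script was tested on simulated counts. Alternatives were RLE scaling, no filter, a filter of 5 CPM, fits of only the types compared, a replicate block, DESeq2 1.42.0 and leaving out each library.

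The members, the roles and the gene lists were chosen with earlier results of these data known. Named with values were Foxj1, Rfx2 and Rfx3, called members, members averaging at least 10 CPM in a type, and close paralogues; other names were picked after their values were seen. Of other lists, called genes were named. Promoters are from RefSeq GRCm38.p6.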

Additional observations from a re-analysis of the deposited data

How the results depend on the processing

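Members called against YFP+ cardiac mesoderm numbered 3 (1.54% of all genes tested, in either direction, as for the other shares here). They numbered 5 (1.15%) under no expression filter, 15 (8.28%) with only the types compared and 11 (6.56%) with DESeq2. Leaving out single libraries gave 1 to 2 (0.473% to 1.04%). Against YFP- cardiac mesoderm they numbered 3 (1.31%), with 5 (1.07%) under no filter, 5 (1.96%) with a mean of at least 5 CPM, 16 (10.1%) with only the types compared and 12 (4.27%) with DESeq2. Against hematopoietic mesoderm they numbered 11 (5.65%), and 3 to 9 (1.2% to 6.41%) without single libraries. Between the mesoderm types, YFP+ and YFP- cardiac mesoderm gave 0 in every setting (at most 0.79% of all genes). DESeq2 called 4 (7.42%) between YFP- cardiac mesoderm and hematopoietic mesoderm. Against hematopoietic mesoderm, leaving out single libraries gave 0 to 1 (0.695% to 2.79%) for YFP+ and 0 to 2 (0.105% to 1.62%) for YFP- cardiac mesoderm. Higher in endoderm than in each other type were 2, with 9 with only the types compared, 8 with DESeq2 and 1 to 4 without single libraries. Over all genes tested the same settings gave 43, 257, 165 and 9 to 71 genes.

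Correlations of the deviations of same-numbered libraries were small, at -0.0188 to 0.0294 over the 6 pairs of types. Their means by pair, 0.00523 to 0.0245, lay above those of differently numbered libraries, -0.0122 to -0.00262. Such values cannot exclude a batch shared by a number. The labels do not say that a number marks a shared litter, batch or day, though file names carry a date-like code shared by same-numbered libraries. The fit without the block was kept as the main one, and the block is given as an alternative. The replicate block gave 2, 2 and 5 calls in the 3 endoderm pairs (1.26%, 1.01% and 3.85% of all genes), and Rsph4a and Cfap65 lost their calls against YFP+ and YFP- cardiac mesoderm (edgeR adjusted p = 0.0671 and 0.133), as did Cfap45, Cfap52, Cfap61, Cfap65, Cfap206 and Dnah5 against hematopoietic mesoderm (0.0563 to 0.115). No called value reversed. Uncalled log2 fold changes that reversed under the block were Dnah8 against YFP+ cardiac mesoderm (0.59), Rfx2 and Tekt1 against YFP- cardiac mesoderm (-0.42 and -0.55) and Rfx2 against hematopoietic mesoderm (0.24).

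Leaving out single libraries reversed other uncalled values. Against YFP+ cardiac mesoderm the log2 fold change ran from -0.44 to 0.11 for Cfap20, -0.15 to 1.81 for Cfap298, -0.77 to 0.18 for Dnaaf2, -0.85 to 0.14 for Dnaaf5, -1.64 to 2.53 for Dnah1, -1.10 to 0.48 for Dnah8, -0.53 to 5.83 for Rfx2 and -0.11 to 4.91 for Tekt1. Against YFP- cardiac mesoderm it ran from -0.10 to 0.99 for Dnah7b and -0.53 to 1.80 for Rfx2. Against hematopoietic mesoderm it ran from -1.27 to 2.21 for Cfap300, -0.16 to 0.80 for Dnaaf2, -0.46 to 0.15 for Dnaaf5, -0.50 to 10.09 for Dnah2, -1.82 to 0.27 for Rfx2 and -1.76 to 8.39 for Tekt1. The highest Dnah2 value came without hematopoietic mesoderm replicate 3, and the highest Tekt1 value without hematopoietic mesoderm replicate 1. The cause was not tested. Foxj1 against YFP- cardiac mesoderm and hematopoietic mesoderm, Rfx3 in all 3 endoderm pairs and Rsph4a against hematopoietic mesoderm kept their calls in every alternative counted. For a pair, these left out only libraries of the 2 types compared. At these depths a gene under 0.380 to 0.671 CPM may have no count, and 24 members were too low to test.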

Other observations

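Dnaic1 and Dnaic2, the symbols under which these files hold the outer arm intermediate chains also called Dnai1 and Dnai2, fall outside the naming rule and were looked up after the other values were seen. Dnaic1 was read at 8.03, 10.04 and 4.06 CPM in the endoderm libraries and had no count in the other 9. Its log2 fold change did not pass in any endoderm pair (edgeR adjusted p = 0.101, 0.116 and 0.0585). Dnaic2 was read at 5.19, 3.85 and 0 CPM in endoderm, had no count elsewhere and was too low to test.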
